A study of Mus musculus with 9 samples.

Results

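Cholesterol and fatty acid synthesis genes were followed through cultured mouse myoblasts given BMP4, GREM1 or neither. The set was a list of 28 gene symbols, and where a symbol had several probe sets the brightest one by mean level was kept. A named probe set was found for 27 of them, and Acat2 was not analysed here. All 27 passed the filter on dim genes, among 17141 genes tested of 24011 with a named probe set. By role they were 6 genes of the mevalonate steps, 9 of the steps between squalene and cholesterol, 6 of sterol sensing and transport and 6 of fatty acid synthesis.

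The cells were primary myoblasts derived from satellite cells, the resident stem cells of skeletal muscle. They had been grown on collagen in medium with 20% fetal bovine serum and basic FGF, were moved to 2% horse serum, and RNA was taken after 24 h. The groups were cells given recombinant BMP4, a bone morphogenetic protein, at 100 ng/ml, cells given recombinant GREM1 (Gremlin 1, a secreted protein that binds BMPs and blocks them) at 500 ng/ml, and mock-treated controls, with 3 arrays each. All 3 groups were in the same low-serum medium, and no genotype or allele is named in the labels. Whether replicates came from separate cultures is not stated, so p-values reflect only the scatter among these arrays, which may be technical. The questions set by the design were what added BMP4 does, what the antagonist GREM1 does, and how they differ.

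Cells make cholesterol from acetyl-CoA through mevalonate, the isoprenoid farnesyl diphosphate, squalene and lanosterol, and make fatty acids from the same precursor through malonyl-CoA. Transcription of most of these enzymes is driven by the sterol regulatory element-binding proteins, SREBP-1 and SREBP-2, encoded by Srebf1 and Srebf2. The escort protein SCAP carries them from the endoplasmic reticulum to the Golgi for cleavage when membrane sterol is low, and the INSIG proteins hold SCAP back when it is high. Sterol genes are known in many cell types for being regulated as a group.

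Promoter sequence is shown for Srebf2, the member that passed the test, and for Hmgcs1 and Insig1, the members whose promoter windows held a sterol regulatory element core. RefSeq windows of the GRCm38.p6 build, from 250 bases before to 50 after a transcription start, were given for 21 of the 27 genes (29 windows in all). The letters searched on both strands were CACNCCAC (a sterol regulatory element core), ATTGG (an inverted CCAAT box, the site of NF-Y), GGGCGG (a GC box, the site of Sp1) and CACGTG (an E-box). In the 95 matches, 0 pairs of different motifs overlapped. Capitals below mark CACNCCAC and ATTGG on either strand, and the core of Insig1 lies on the minus strand and so reads GTGGCGTG. The Srebf2 window is chr15:82147019-82147318, that of Hmgcs1 chr13:119690101-119690400 and that of Insig1 chr5:28071162-28071461, all on the plus strand.
Srebf2: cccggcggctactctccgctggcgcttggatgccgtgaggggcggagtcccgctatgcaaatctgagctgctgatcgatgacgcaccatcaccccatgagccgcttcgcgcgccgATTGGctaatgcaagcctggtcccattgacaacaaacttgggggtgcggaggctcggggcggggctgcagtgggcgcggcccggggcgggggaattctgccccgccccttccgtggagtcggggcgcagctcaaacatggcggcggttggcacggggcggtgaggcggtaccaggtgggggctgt
Hmgcs1: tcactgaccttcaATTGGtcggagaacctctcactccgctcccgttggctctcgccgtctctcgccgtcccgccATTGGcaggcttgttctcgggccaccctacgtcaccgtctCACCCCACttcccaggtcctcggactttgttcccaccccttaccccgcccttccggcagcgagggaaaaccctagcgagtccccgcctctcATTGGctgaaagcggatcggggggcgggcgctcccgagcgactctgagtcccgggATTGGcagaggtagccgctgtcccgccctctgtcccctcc
Insig1: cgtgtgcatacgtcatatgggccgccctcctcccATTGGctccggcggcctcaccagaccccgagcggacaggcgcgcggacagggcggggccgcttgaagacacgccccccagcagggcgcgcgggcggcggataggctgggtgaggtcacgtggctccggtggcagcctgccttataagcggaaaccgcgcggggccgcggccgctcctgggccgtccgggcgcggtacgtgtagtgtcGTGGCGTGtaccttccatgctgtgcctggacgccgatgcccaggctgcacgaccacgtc

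The inverted CCAAT box was in the windows of 18 of the 21 genes (85.7%), against 41.8% of the 13185 tested genes with a window and 37.4% of all 32851 windows. The GC box was in 17 of 21 (81.0%), against 60.2% of tested genes and 35.7% of all windows, and the E-box in 5 of 21 (23.8%), against 10.8% and 7.15%. The sterol element core was in 2 of 21 (9.52%), against 7.83% of tested genes and 6.24% of all windows. Srebf2 had 1 inverted CCAAT box and 0 cores in its window, Hmgcs1 4 and 1, and Insig1 1 and 1. These matches describe exact letters in a short window, with no test. Variants of the core were not searched, so a window with 0 cores may still hold a sterol element.

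The Srebf2 gene also holds a microRNA, miR-33, known for repressing cholesterol export genes such as Abca1. Its mature form in RefSeq (GRCm38.p6, chr15:82198127-82198147, plus strand) is shown because it shares the host gene that passed the test, with the seed in capitals.
mmu-miR-33-5p: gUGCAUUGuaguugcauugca
The probe set named Mir33 lay below the filter and was not tested, at 2.75, 2.74 and 2.68 on the log2 scale in BMP4 cells, 3.36, 2.75 and 2.63 in GREM1 cells, and 2.87, 2.75 and 2.81 in control cells. Groups overlapped.

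The arrays first had to show that the treatments and cells were as labelled. Id1, a direct target of BMP-SMAD signalling, averaged 10.14 ± 0.32 in BMP4 cells, 8.30 ± 0.23 in GREM1 cells and 9.62 ± 0.37 in control cells (log2, SD, n = 3 each). In GREM1 cells it fell by 1.32 ± 0.21 (SE) against control cells (limma, adjusted p = 0.0117), and was 0.52 ± 0.21 higher in BMP4 cells without passing (adjusted p = 0.600). Smad6, an inhibitory SMAD induced by BMPs, fell by 1.20 ± 0.18 with GREM1 (adjusted p = 0.00784) and was 1.03 ± 0.18 higher with BMP4, short of the threshold (adjusted p = 0.0796). The transcript Grem1 fell by 0.79 ± 0.12 with GREM1 (adjusted p = 0.00887) and differed by 0.04 ± 0.12 with BMP4 (adjusted p = 0.954), and Bmp4 lay below the filter. All 8 myoblast markers were tested, with array means of 8.90 to 9.10 in BMP4 cells, 9.004 to 9.25 in GREM1 cells and 8.61 to 9.02 in control cells. These means cover moves in both directions. With GREM1 against control, 3 of the 8 were called higher and 0 lower (2.08% and 2.21% of all genes). The differences ran from -0.85 (Myf5, 6.98 against 7.83) to 0.996 (Itga7, 9.56 against 8.56). With BMP4 against control 0 were called. Of markers of other cells, 3 of 7 for adipocytes were above the filter (Pparg, Lpl and Plin1), with Adipoq, Cidec, Fabp4 and Lep below. Also above it were 2 of 5 for fibroblasts, with Pdgfra, Dcn and Lum below. The same held for 2 of 4 for endothelium, 2 of 4 for leukocytes and 1 of 1 for Schwann cells.

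After 24 h, 1 of the 27 genes passed the test in any comparison. Srebf2, the gene of SREBP-2, rose in GREM1 cells, where 4.29% of all genes tested passed against control, so 1 of 27 is near the share of all genes. The values in every array are set out by role next, with the map of all 27 genes relative to the control mean.

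**Figure D1:**
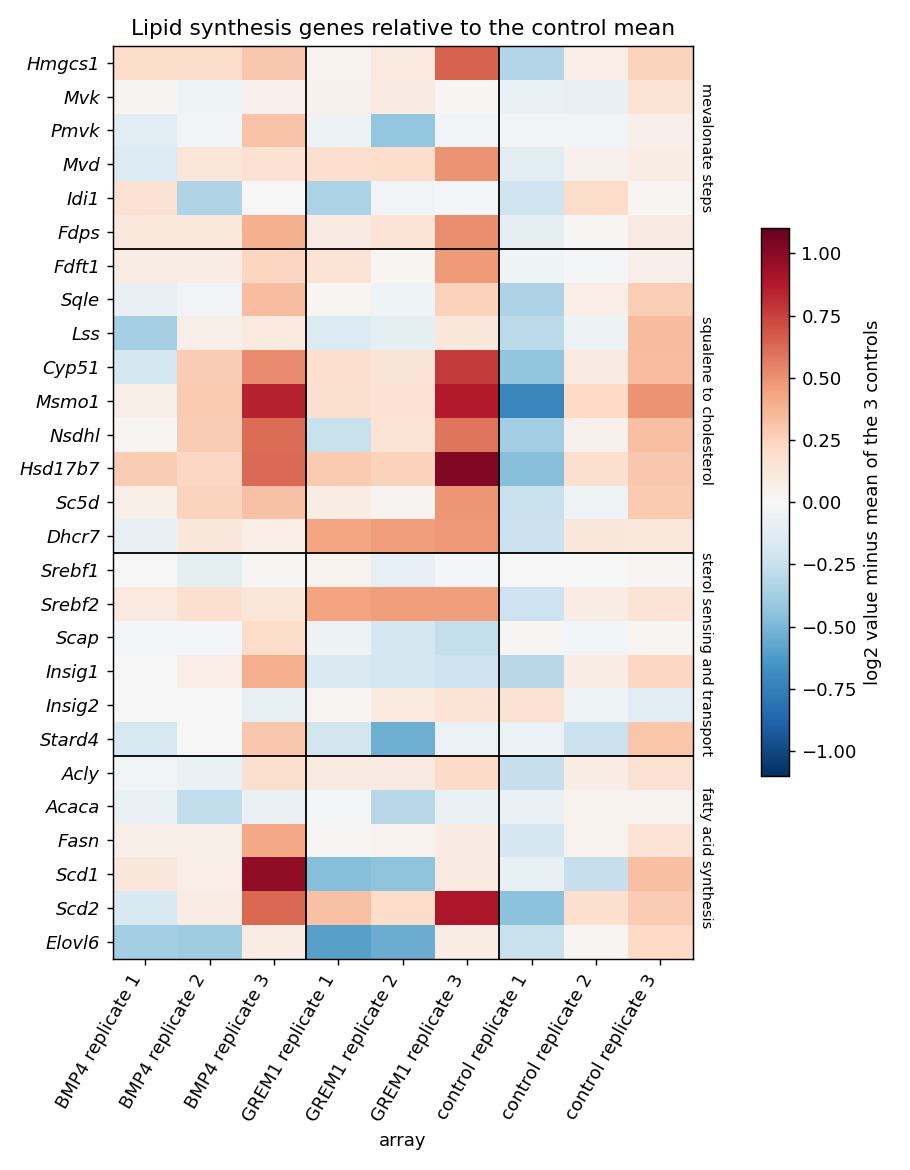
Log2 value minus the mean of the 3 control arrays for 27 lipid synthesis genes (rows, grouped by role) in the 9 arrays (columns: BMP4, GREM1, control). Replicate 3 is the darkest red of its group for most enzymes, while Srebf2 and Dhcr7 are evenly red in the 3 GREM1 arrays.

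Srebf2 stood at 8.44, 8.50 and 8.45 in the 3 BMP4 arrays, 8.77, 8.78 and 8.78 in the 3 GREM1 arrays, and 8.09, 8.41 and 8.47 in the 3 control arrays. Every GREM1 array lay above every BMP4 and every control array, and control replicate 1 lay well below the other controls. The means were 8.78 ± 0.01 with GREM1 and 8.32 ± 0.20 in control cells (SD, n = 3 each), a log2 difference of 0.45 ± 0.10 (SE; 95% interval 0.22 to 0.68), or 1.37-fold (limma, adjusted p = 0.0401). With the replicate number as a block in the limma fit, its adjusted p was 0.0180. In bulk RNA a smaller number of cells of a type and less RNA per cell cannot be told apart, here and below. Srebf2 in BMP4 cells was 0.14 ± 0.10 above control (adjusted p = 0.749) and 0.31 ± 0.10 below GREM1 (adjusted p = 0.112). Without control replicate 1 the GREM1 difference was 0.34 and its adjusted p 0.0608. Without control replicate 2 or 3 the adjusted p was 0.0556 or 0.0523. Without GREM1 replicate 1, 2 or 3 it was 0.116, 0.128 or 0.0868, and without BMP4 replicate 1 or 2 it was 0.0602 or 0.0693. BMP4 replicate 3 was the one array whose removal left the call in place. Without control replicate 1, Srebf2 passed as lower in BMP4 than in GREM1 cells (adjusted p = 0.0280), but not without any other 1 array.

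Srebf1, whose isoform SREBP-1c drives fatty acid synthesis, varied little over the 9 arrays. It read 6.08, 5.98 and 6.09 in BMP4 cells, 6.12, 5.99 and 6.07 in GREM1 cells and 6.07, 6.07 and 6.10 in control cells. Its 95% interval for GREM1 minus control ran from -0.19 to 0.14, and for BMP4 minus control from -0.20 to 0.14. Scap, the SREBP escort, was 8.43, 8.43 and 8.64 with BMP4, 8.38, 8.25 and 8.18 with GREM1, and 8.45, 8.41 and 8.46 in control cells. The GREM1 arrays lay below all others, yet the difference from control, -0.17 ± 0.09, did not pass (adjusted p = 0.325), nor did BMP4 minus GREM1, 0.23 ± 0.09 (adjusted p = 0.195). Insig1, an SREBP target whose protein holds SCAP back, was 9.06, 9.13 and 9.45 with BMP4, 8.90, 8.86 and 8.83 with GREM1, and 8.75, 9.13 and 9.29 in control cells. The BMP4 arrays were all above the GREM1 arrays by 0.35 ± 0.15 on average (adjusted p = 0.227), and both overlapped the spread of the controls. Insig2, the second INSIG, ranged over 6.70 to 6.80 with BMP4, 6.82 to 6.95 with GREM1 and 6.68 to 6.96 in control cells. Stard4, a cytosolic sterol carrier, ranged over 5.98 to 6.45, 5.62 to 6.09 and 5.92 to 6.46 in the same order of groups.

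The 6 enzymes on the way to farnesyl diphosphate gave 0 calls in any comparison. Hmgcs1, the cytosolic HMG-CoA synthase, was 9.30, 9.29 and 9.39 in BMP4 cells, 9.14, 9.21 and 9.75 in GREM1 cells and 8.78, 9.17 and 9.35 in control cells. The groups overlapped, at 0.23 ± 0.18 for BMP4 minus control (adjusted p = 0.766) and 0.27 ± 0.18 for GREM1 minus control (adjusted p = 0.452), or 0.07 and 0.11 without control replicate 1. Without GREM1 replicate 3 the GREM1 difference was 0.076. Mvd, the mevalonate diphosphate decarboxylase, was 7.03, 7.31 and 7.35 with BMP4, 7.36, 7.37 and 7.67 with GREM1, and 7.05, 7.22 and 7.26 in control cells. All 3 GREM1 arrays lay above the controls, by 0.29 ± 0.12, which did not pass (adjusted p = 0.221). Fdps, the farnesyl diphosphate synthase, was 6.48, 6.49 and 6.76 with BMP4, 6.46, 6.52 and 6.88 with GREM1, and 6.26, 6.38 and 6.47 in control cells. Its BMP4 arrays did not overlap the controls (0.21 ± 0.13, adjusted p = 0.719), and its GREM1 arrays did (0.25 ± 0.13, adjusted p = 0.325). Mvk, the mevalonate kinase, stayed within 6.42 to 6.65 over all arrays, with BMP4 and GREM1 differences from control of 0.01 ± 0.08 and 0.05 ± 0.08. Pmvk, the next kinase, and Idi1, the isopentenyl diphosphate isomerase, overlapped between all groups, with GREM1 minus control at -0.17 ± 0.14 for Pmvk and -0.13 ± 0.16 for Idi1.

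The steps from squalene to cholesterol hold the gene nearest to the threshold. Dhcr7, the reductase that forms cholesterol from its immediate precursor, was 6.35, 6.57 and 6.52 in BMP4 cells, 6.88, 6.90 and 6.93 in GREM1 cells and 6.21, 6.57 and 6.56 in control cells. The GREM1 arrays lay above all others and differed among themselves by very little (SD 0.021). GREM1 minus control was 0.46 ± 0.11 (95% interval 0.21 to 0.70; 1.37-fold), with an adjusted p of 0.0504, and 0.0138 with the replicate number as a block in the limma fit. BMP4 minus GREM1 was -0.42 ± 0.11 (adjusted p = 0.0535), and BMP4 minus control 0.04 ± 0.11 (adjusted p = 0.949). GREM1 minus control did not pass in limma without any 1 array (adjusted p 0.0555 to 0.146), and stood at 0.34 without control replicate 1 (0.0942). Without control replicate 1 the BMP4 minus GREM1 difference, still -0.42, passed (adjusted p = 0.0177). It did not pass without any other 1 array.

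**Figure D2:**
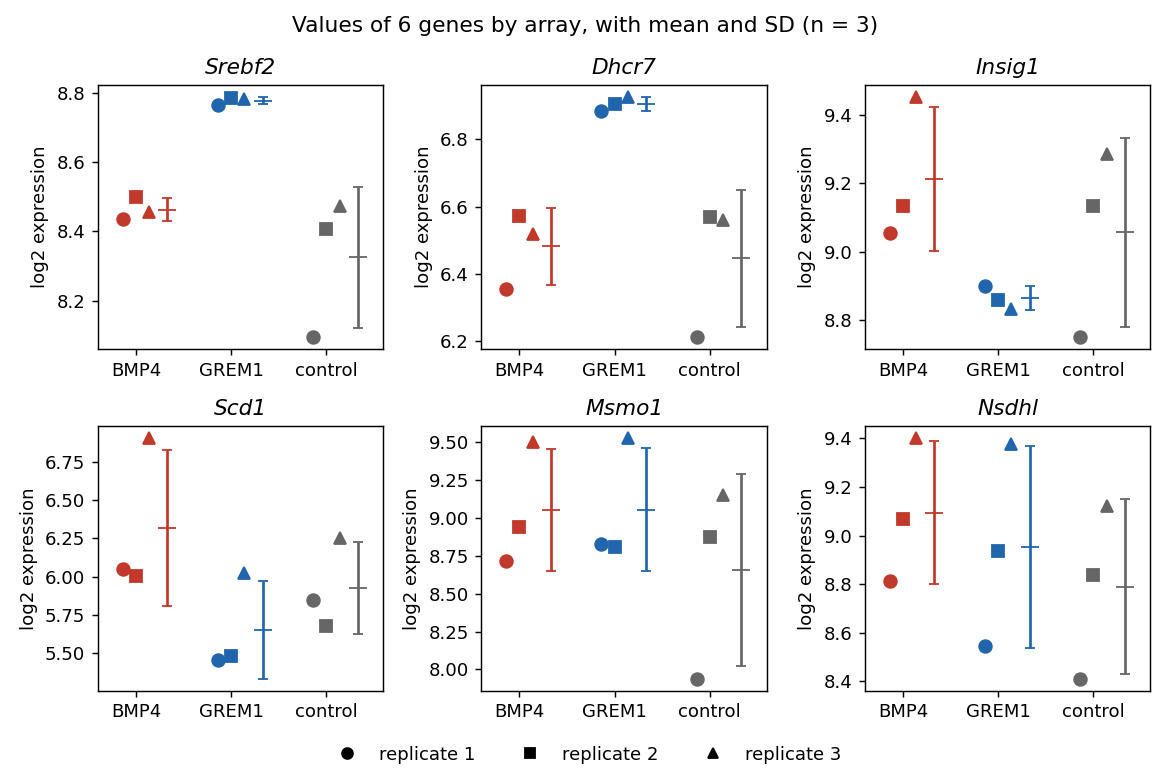
Log2 expression of Srebf2, Dhcr7, Insig1, Scd1, Msmo1 and Nsdhl in each array by group, with symbols for the replicate number and a bar for mean and SD (n = 3). Srebf2 and Dhcr7 sit highest in the 3 GREM1 arrays, while in Scd1, Msmo1 and Nsdhl replicate 3 is the highest of each group.

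The other 8 genes of these steps did not pass in any comparison. Msmo1, the sterol methyl oxidase, was 8.72, 8.94 and 9.50 with BMP4, 8.83, 8.81 and 9.53 with GREM1, and 7.94, 8.87 and 9.15 in control cells, 0.40 ± 0.33 above control with either protein (adjusted p = 0.776 for BMP4 and 0.550 for GREM1). Hsd17b7, a ketosteroid reductase of the pathway, was 8.06, 8.01 and 8.40 with BMP4, 8.07, 8.03 and 8.80 with GREM1, and 7.31, 7.95 and 8.08 in control cells, 0.38 ± 0.25 and 0.52 ± 0.25 above control (adjusted p = 0.731 and 0.279). Control replicate 1 was the lowest of the 9 arrays for both genes. Without it, Msmo1 stood 0.04 above control with BMP4 and 0.04 with GREM1, and without control replicate 3, 0.65 and 0.65. Hsd17b7 stood at 0.14 and 0.29 without control replicate 1. With GREM1, Msmo1 stood at 0.17 and Hsd17b7 at 0.27 without GREM1 replicate 3, and with BMP4, Msmo1 stood at 0.18 without BMP4 replicate 3. Nsdhl, the sterol dehydrogenase, was 8.81, 9.07 and 9.40 with BMP4, 8.54, 8.94 and 9.38 with GREM1, and 8.41, 8.84 and 9.12 in control cells. Cyp51, the lanosterol demethylase, was 8.18, 8.65 and 8.89 with BMP4, 8.56, 8.51 and 9.14 with GREM1, and 7.93, 8.47 and 8.71 in control cells. In both genes the spread inside each group exceeded the distance between groups. Fdft1, the squalene synthase, was 9.10 to 9.25, 9.04 to 9.48 and 8.97 to 9.08 in BMP4, GREM1 and control cells, with the BMP4 arrays above the controls by 0.13 ± 0.12 (adjusted p = 0.788). Sqle, the squalene epoxidase, Lss, the lanosterol synthase, and Sc5d, a sterol desaturase, overlapped between all groups, at 8.67 to 9.35, 6.09 to 6.80 and 7.45 to 8.19 over the 9 arrays.

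Fatty acid synthesis had 6 genes and no call. Acly, which makes cytosolic acetyl-CoA from citrate, was 8.57, 8.53 and 8.78 with BMP4, 8.70, 8.70 and 8.81 with GREM1, and 8.35, 8.68 and 8.77 in control cells. Control replicate 1 was again the low array. Acaca, the acetyl-CoA carboxylase, ranged over 6.69 to 6.89 with BMP4, 6.65 to 6.94 with GREM1 and 6.89 to 6.996 in control cells. Fasn, the fatty acid synthase, was 8.75, 8.75 and 9.11 with BMP4, 8.69, 8.72 and 8.77 with GREM1, and 8.49, 8.73 and 8.83 in control cells. Both genes overlapped between groups. Scd1, a stearoyl-CoA desaturase, was 6.05, 6.002 and 6.90 with BMP4, 5.46, 5.49 and 6.02 with GREM1, and 5.85, 5.68 and 6.26 in control cells. BMP4 replicate 3 stood far above the other arrays. BMP4 minus GREM1 was 0.66 ± 0.26 (95% interval 0.080 to 1.25; adjusted p = 0.192), with overlapping groups. Scd2, its paralog with broader tissue expression in the mouse, was 8.74, 8.99 and 9.53 with BMP4, 9.22, 9.11 and 9.79 with GREM1, and 8.45, 9.08 and 9.18 in control cells, 0.47 ± 0.26 above control with GREM1 (adjusted p = 0.359), 0.24 without control replicate 1 and 0.26 without GREM1 replicate 3. Elovl6, the elongase for long saturated chains, was 7.39, 7.38 and 7.85 with BMP4, 7.17, 7.23 and 7.85 with GREM1, and 7.53, 7.79 and 7.99 in control cells, and its GREM1 difference was -0.35 ± 0.20 (adjusted p = 0.374).

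Read across the list, BMP4 left 0 of 27 genes past the threshold in limma, where 0.117% of all genes tested passed, 0.0933% as higher and 0.0233% as lower. With the replicate number as a block 0 passed too, where 0.379% of all genes did, 0.303% as higher. None had an unadjusted p under 0.05, against 8.02% of all genes. The 27 differences had a median of 0.075, with 21 above 0, and a range of -0.23 to 0.40, while the median of all genes was -0.0060, with 48.2% above 0. Their 95% intervals reached from -0.69 to 1.14. Groups did not overlap for 2 genes, Fdps and Fdft1, both higher with BMP4, against 5.31% of all genes higher and 5.90% lower, or 11.2% in either direction. Among the 15 sterol enzymes the median was 0.13, with 13 above 0. These medians rested on single arrays. Over the 27 genes the median was 0.0058 without control replicate 1 (15 above 0), 0.0018 without BMP4 replicate 3 (14 above 0), 0.15 without BMP4 replicate 1, 0.12 without BMP4 replicate 2 and 0.19 without control replicate 3. For the sterol enzymes it was 0.042 without control replicate 1 (8 of 15 above 0), 0.041 without BMP4 replicate 3 (9 above 0) and 0.21 without control replicate 3.

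GREM1 against control gave 1 higher and 0 lower of 27, where 2.08% of all genes were called higher and 4.29% in either direction. With the replicate block, 2 were called higher, Srebf2 and Dhcr7, where 11.6% of all genes were called and 5.58% called higher. An unadjusted p under 0.05 was found for 3 genes, all higher (Srebf2, Dhcr7 and Mvd), against 20.0% of all genes. The same 3 did not overlap the controls, and Scap did not overlap them on the lower side, against 11.3% of all genes higher and 12.7% lower, or 24.0% in either direction. The 27 differences had a median of 0.096, with 17 above 0, and ran from -0.35 (Elovl6) to 0.52 (Hsd17b7), against a median of -0.0057 and 48.6% above 0 over all genes. The 15 sterol enzymes had a median of 0.21, with 12 above 0, while 2 of the 6 genes of sensing and transport and 3 of the 6 fatty acid synthesis genes were above 0. Here too single arrays moved the medians. Over the 27 genes the median was 0.0072 without control replicate 1 (14 above 0), 0.055 without GREM1 replicate 3 (15 above 0) and 0.21 without control replicate 3. For the sterol enzymes it was 0.075 without control replicate 1 and 0.076 without GREM1 replicate 3 (10 above 0 in each), 0.33 without control replicate 3 and 0.33 without GREM1 replicate 1. The counts of calls and of groups without overlap lie near or below what the shares of all genes would give for 27 genes.

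BMP4 against GREM1 gave 0 of 27 in limma, where 6.45% of all genes passed, 3.62% as higher and 2.83% as lower. An unadjusted p under 0.05 was found for 5, with Scd1, Scap and Insig1 higher and Dhcr7 and Srebf2 lower in BMP4 cells, against 19.4% of all genes. Scap and Insig1 did not overlap on the higher side, and 4 genes (Srebf2, Dhcr7, Mvd and Insig2) on the lower side, against 12.3% and 12.2% of all genes, or 24.5% in either direction. The median of the 27 was -0.0062, with 10 above 0, and lay between -0.071 and 0.089 without 1 array (lowest without GREM1 replicate 2, highest without GREM1 replicate 3). In the plot of differences most intervals cover 0 in all 3 comparisons.

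**Figure D3:**
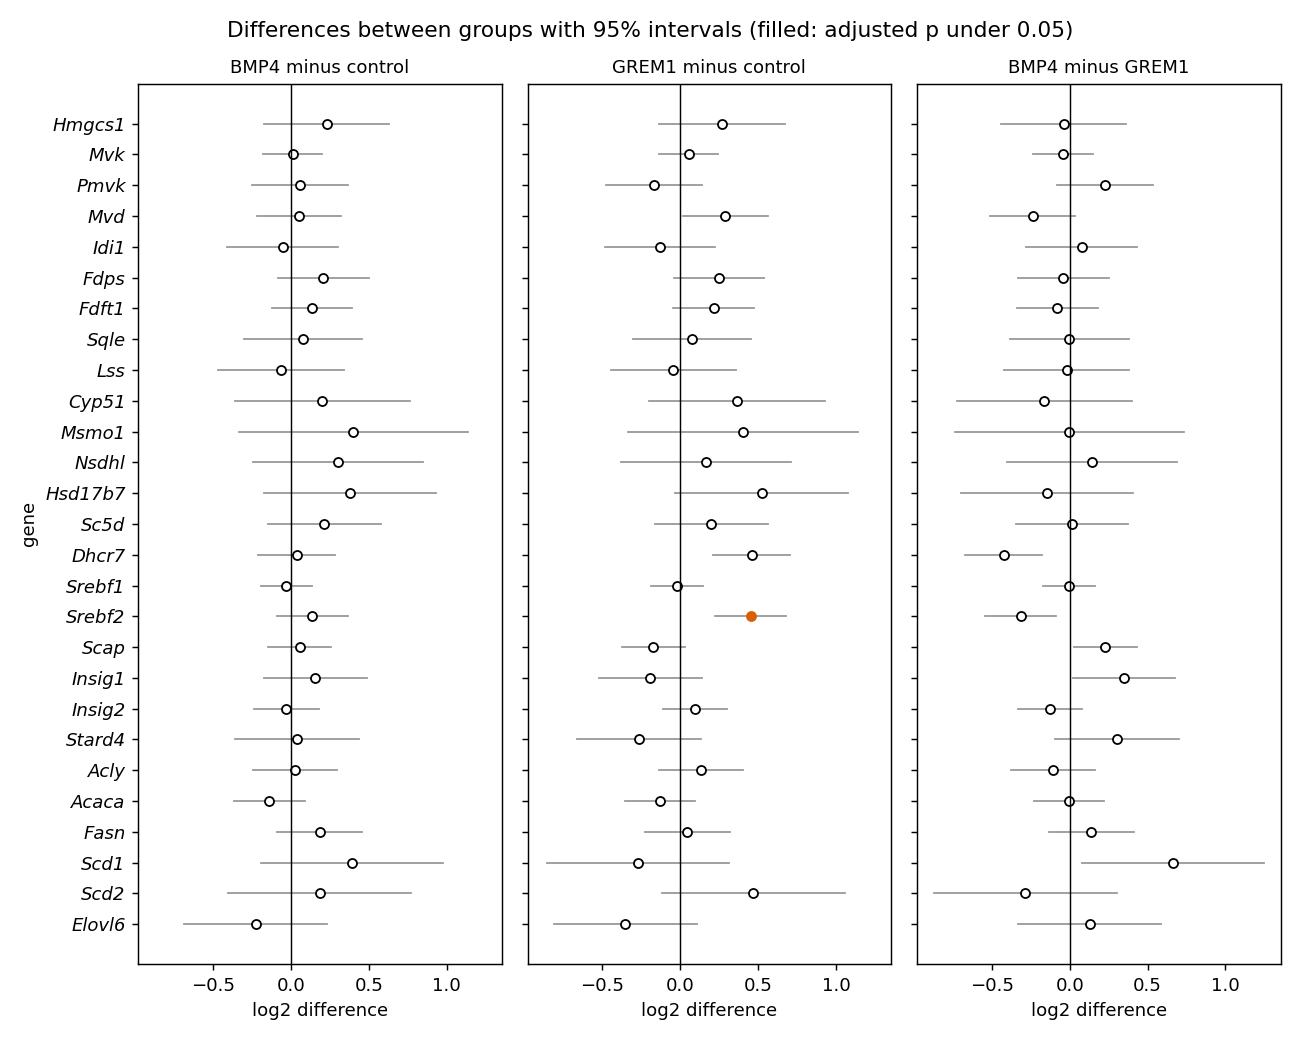
Log2 differences of the 27 genes with 95% intervals in the 3 comparisons named above the panels (points: estimates, lines: intervals, filled points: limma adjusted p under 0.05). The Srebf2 point in GREM1 minus control, at 0.45, is the one filled point.

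For 21 of the 27 genes more of the spread over the 9 arrays lay between replicate numbers than between treatments, against 43.4% of all genes. Replicate 3 was the highest array of its group in all 3 groups for 18 of the 27 genes, including 12 of the 15 sterol enzymes and 8 of the 9 between squalene and cholesterol, against 13.7% of all genes. Replicate 1 was the lowest in all 3 groups for 6 of 27, against 9.03% of all genes, and both held for 4, against 4.14%. Split into sums of squares, the median gene of the list had 27.5% of its spread over the 9 arrays between treatments, 52.8% between replicate numbers and 17.5% in neither, where the median over all genes was 33.3%, 26.0% and 31.0%. Replicate number took over 50% of the spread for 15 of 27 genes, against 17.6% of all genes. This description was chosen after the values were seen and has no test. The labels do not say what a replicate number stands for.

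Nsdhl had the largest share by replicate number of the list, 82.7%, followed by Lss with 81.0% and Sqle with 77.5%. Srebf2, Dhcr7 and Scap stood at the opposite end, with 79.3%, 78.0% and 61.3% between treatments and 9.0%, 14.8% and 5.6% between replicate numbers. Relative to each gene's mean over the 9 arrays, the sterol enzymes averaged -0.11, -0.0065 and 0.21 in BMP4 replicates 1, 2 and 3, -0.053, -0.037 and 0.33 in GREM1 replicates, and -0.38, -0.056 and 0.10 in control replicates. Replicate 3 is the high array in each group and control replicate 1 the low one of all 9. The count of 18 genes was also 18 of 27 with each array centred on its median (21.2% of all genes), 14 with quantile normalization repeated (12.3%) and 18 without control replicate 1 (15.8%), settings added after the values were seen.

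**Figure D4:**
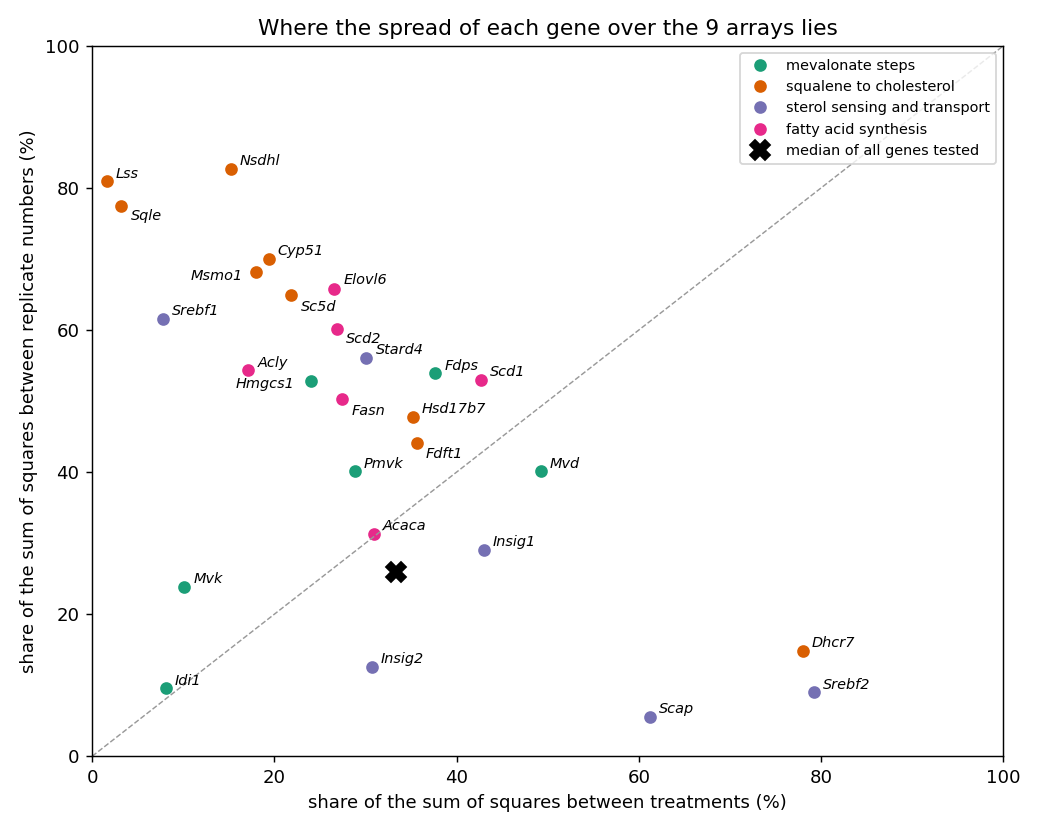
Share of each gene's sum of squares over the 9 arrays that lies between treatments (x axis, %) and between replicate numbers (y axis, %), coloured by role, with the median of all genes tested as a cross and equality as a dashed line. Most sterol enzymes lie above the line, with Nsdhl at 82.7% by replicate number, and Srebf2, Dhcr7 and Scap lie far below it.

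Mitosis genes moved with replicate number and with treatment. In all 7 tested mitosis genes replicate 3 was the highest of its group in all 3 groups, and their mean deviations were 0.10, 0.19 and 0.65 in BMP4 replicates 1, 2 and 3, -0.57, -0.65 and -0.27 in GREM1 replicates, and -0.02, 0.06 and 0.52 in control replicates. Of the 7, 3 fell with GREM1 against control (2.21% of all genes were called lower), and all 7 were called lower there with the replicate block (6% of all genes). In limma without the block, 5 were higher with BMP4 than with GREM1 (3.62%). The muscle differentiation genes had array means of 10.56 to 11.06 with BMP4, 11.31 to 11.42 with GREM1 and 10.63 to 11.01 in control cells. Their mean deviations were -0.04, 0.03 and -0.47 in BMP4 replicates 1, 2 and 3, 0.28, 0.38 and 0.39 in GREM1 replicates, and -0.17, -0.015 and -0.40 in control replicates. Of the 8, 2 were called higher with GREM1 against control in limma (2.08% of all genes). Without overlap, 7 were higher there (11.3%). The part of the mitosis and muscle differentiation genes in the values of the lipid genes was not tested.

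Other genes of lipid handling were taken from 5 lists of 71 symbols, of which 61 had a named probe set and 60 were tested. In BMP4 against control 0 of the 60 passed in limma (7 had an unadjusted p under 0.05), where 0.117% and 8.02% of all genes did. The nearest was Ppargc1a, the coactivator PGC-1α, at 5.89, 5.87 and 5.87 with BMP4 and 6.46, 6.43 and 6.46 in control cells, a difference of -0.57 ± 0.09 with an adjusted p of 0.0504, and 0.0398 with the replicate block. It passed without GREM1 replicate 3, an array of neither group compared (adjusted p = 0.0409), and did not without any other 1 array. Paqr3, a Golgi anchor of SCAP, was 0.41 ± 0.12 higher (adjusted p = 0.407), and Ch25h, which makes an oxysterol, stood at -0.55 ± 0.19 (adjusted p = 0.529). Pdk4, the kinase that shuts pyruvate out of the citric acid cycle and is induced when fat is burned, was 9.43, 9.61 and 9.75 with BMP4, 8.15, 8.18 and 7.71 with GREM1, and 8.82, 8.82 and 8.97 in control cells. The 3 groups did not overlap. Pdk4 fell with GREM1 against control, by 0.86 ± 0.14 (adjusted p = 0.0112), and was 1.59 ± 0.14 higher with BMP4 than with GREM1 (3.00-fold; adjusted p = 0.000182). Against control, BMP4 gave 0.73 ± 0.14, which did not pass (adjusted p = 0.114).

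Pdk4 was the one gene of the 60 called in GREM1 against control, where 4.29% of all genes were called. With the replicate block 9 of the 60 were called, 3 higher and 6 lower, where 11.6% of all genes were. The 3 higher were Hadha, a subunit of the mitochondrial trifunctional protein of fatty acid oxidation, 0.38 ± 0.09 higher (adjusted p = 0.0528 without the block and 0.0280 with it), Npc1, the late endosomal cholesterol exporter, 0.40 ± 0.11 higher (0.0804 and 0.0444), and Syvn1, a ubiquitin ligase of the endoplasmic reticulum, 0.41 ± 0.11 higher (0.0714 and 0.0331). Hadha and Npc1 also passed without control replicate 2 (adjusted p = 0.0475 and 0.0231), and did not without any other 1 array. Of the lower ones, Erlin1, which takes part in the turnover of sterol-regulated enzymes, stood at -0.46 ± 0.15 (0.120 and 0.0215), and Cpt1a, the gatekeeper of mitochondrial fatty acid oxidation, at -0.44 ± 0.14 (0.127 and 0.0111), and the others were Pdk4, Lbr, Me1 and Slc25a1. Of the 12 fatty acid oxidation genes, 9 had a difference above 0, where 48.6% of all genes did. Their median was 0.14, and the 1 gene called among them without the block, Pdk4, was lower. Abca1, a target of miR-33, differed by -0.14 ± 0.11 (adjusted p = 0.551). It was dim, at 3.88 to 4.30 over the 9 arrays, close to the filter levels of 3.89 to 4.02.

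In BMP4 against GREM1, 5 of the 60 passed, where 6.45% of all genes did. Ppargc1a was lower with BMP4, at 5.89, 5.87 and 5.87 against 6.44, 6.55 and 6.74 with GREM1 (-0.70 ± 0.09; adjusted p = 0.00146), and Pdk4 was higher. Cpt1a was higher, at 8.04, 7.99 and 8.44 with BMP4 against 7.41, 7.40 and 7.71 with GREM1 (0.65 ± 0.14; adjusted p = 0.0295). Slc25a1, the mitochondrial citrate exporter that feeds fatty acid synthesis, was higher, at 7.18, 7.07 and 7.54 against 6.72, 6.72 and 6.87 (0.49 ± 0.13; adjusted p = 0.0495). Lipa, the lysosomal acid lipase that frees cholesterol from its esters, was lower, at 6.80, 7.05 and 6.89 against 7.47, 7.28 and 7.22 (-0.41 ± 0.10; adjusted p = 0.0376). None of these 5 genes, which were picked by the test on the same arrays, overlapped between the groups. Over the 60 genes, 10 did not overlap on the higher side and 10 on the lower side. Of all genes, 24.5% did not overlap in either direction. Among genes of liver X receptors and efflux, Cyp27a1, a sterol hydroxylase, had the smallest p, at -0.54 ± 0.17 (adjusted p = 0.103). Its BMP4 arrays read 3.70, 3.83 and 3.66, under the filter levels of those arrays (3.97, 3.90 and 3.89), so this difference is measured against dim values. The calls of Ppargc1a and Pdk4 held without any 1 array. Cpt1a did not pass without BMP4 replicate 1 or 3 or GREM1 replicate 1 or 2 (adjusted p 0.0509 to 0.117), and Lipa did not without control replicate 2, BMP4 replicate 1 or 3 or GREM1 replicate 1 or 2 (0.0622 to 0.137). Slc25a1 passed without BMP4 replicate 2 and did not without any other 1 array (0.0540 to 0.165). Pparg, the adipocyte regulator, was also higher with BMP4 than with GREM1, by 1.46 ± 0.13 (adjusted p = 0.000182). Against control it fell by 1.22 ± 0.13 with GREM1 (adjusted p = 0.00161) and differed by 0.24 ± 0.13 with BMP4 (adjusted p = 0.661). Of the other adipocyte markers, Adipoq, Cidec, Fabp4 and Lep lay below the filter, and Plin1 stayed within 4.83 to 5.16. Lpl read 7.35, 7.24 and 8.08 with BMP4, 6.66, 6.70 and 7.09 with GREM1, and 7.16, 6.86 and 7.53 in control cells. Lpl was not called in any comparison. The part of Pparg in the lipid gene values was not tested.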

How the data were processed

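RNA was amplified and hybridised to 1 Affymetrix array per sample. Per the submitters' processing notes, the deposited values come from RMA (robust multi-array average, on the log2 scale) run with Affymetrix Expression Console. RMA corrects background, normalizes between arrays and can compress differences of dim genes. For the array model, chip definition and genome build: not given in the sources used here. Array medians ran from 5.00 to 5.12, and 0 columns were left unused. The number of arrays limits the precision.

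Of 24973 probe sets, 24015 had 1 gene symbol, and the other 958 had none or more than 1. The filter kept genes that exceeded the 30th percentile of an array (3.89 to 4.02) on 3 or more arrays. Groups were compared with limma 3.58.1 in R 4.3.3 (lmFit and eBayes, all 9 arrays, 2-sided), with Benjamini-Hochberg adjustment over 17141 genes and a threshold of 0.05. The code was tested on simulated data. Both comparisons with control share the same control arrays. Same-numbered arrays deviated together over all genes against control (correlations of 0.34, 0.17 and 0.58 for BMP4 and 0.24, 0.12 and 0.47 for GREM1, replicates 1 to 3), every pair above 0.1, so the numbers were taken to pair the arrays. The main fit left this pairing out, and the replicate block took it in. The pairing was read from these same arrays and is not given by the labels. The block was 1 factor over all 9 arrays, so it also paired BMP4 with GREM1 arrays, where replicate 2 correlated at 0.088. Alternatives were the replicate block, the 2 groups alone, an intensity trend, array weights, repeated quantile normalization, median centring, 2 other filters, the mean of probe sets, and leaving out each array.

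The members and lists were chosen with earlier results of these data known. All members are named. Of the other lists, genes past the threshold are named, or the 2 with the smallest p. Npc1, Erlin1, Hadha, Lbr, Me1, Pparg, Abca1, the Srebf2 promoter, miR-33 and the description by replicate number were chosen after values were seen. So were Lpl, Plin1, Myf5 and Itga7. A sequence is shown for members with a sterol element core.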

Additional observations from a re-analysis of the deposited data

How the results depend on the processing

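No direction of a called gene turned under any of the 18 alternatives. Over the 486 values per comparison of the 27 genes, 34, 12 and 38 values that were not called changed sign, in BMP4 minus control, GREM1 minus control and BMP4 minus GREM1. In BMP4 minus control, 0 of the 27 genes were called under every alternative, and 1 of the 60 other lipid genes with the replicate block, 2 with array weights, 1 with repeated quantile normalization, 1 with the filter at the 50th percentile, and 0 to 1 without 1 array. In GREM1 minus control, the 1 called gene of the list became 2 with the replicate block, 0 with only the 2 groups compared, 2 with array weights, 2 with repeated quantile normalization, 0 with median centring, 2 with the stricter filter, and 0 to 1 without 1 array. Among the other lipid genes, 9 were called with the block, 3 with array weights, 2 with the stricter filter and 1 to 3 without 1 array. In BMP4 minus GREM1, where the numbers did not meet the pairing rule (correlations of 0.22, 0.088 and 0.42), the block called 2 of the list, Dhcr7 (adjusted p = 0.0153) and Scd1 (0.00344), and 11 others. The 2 groups alone called 2 and 3, array weights 2 and 10, repeated quantile normalization 1 of the list and the stricter filter 1 of the list, and leaving out 1 array 0 to 2 and 2 to 5. The causes were not tested.

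Srebf2 in GREM1 minus control kept its direction (0.34 to 0.53) and passed in 8 of 18 alternatives, with an adjusted p of 0.0906 with the 2 groups alone and 0.0587 with median centring. Dhcr7 passed in 4 of 18 (adjusted p 0.0138 to 0.146). Over all genes, GREM1 minus control called 735 (356 higher and 379 lower), 1985 with the block, 437 with the 2 groups alone, and 387 higher and 272 lower with median centring. BMP4 minus control called 20 and BMP4 minus GREM1 1106, or 65 and 2192 with the block. With 3 arrays per group, most of the 95% intervals in this list cover 0. They also cover differences other than 0, so a p that missed the threshold does not show that values did not differ.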
